A study of Mus musculus with 2 samples.

Results

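The secondary granule genes described here are 7 genes of 32286 measured features, chosen by symbol: Ltf, Camp, Ngp, Lcn2, Fcnb, Chil3 and Orm1. The data are droplet-based 3′ single-cell RNA counts of mouse marrow from 2 libraries, 1 for each group. The control library is of genotype Mx1Cre+/-;Rosa26+/+ and the other, called the MYC library, of genotype Mx1Cre+/-;Rosa26LSL-MYC/LSL-MYC. Both groups carry Mx1-Cre, a Cre recombinase under an interferon-inducible promoter that is active in many cell types, and the MYC transgene is silent until Cre excises a stop cassette. The labels used here give no age, sex, number of animals or inducing agent. The series asks how expression in marrow cells changes after MYC is overexpressed in hematopoietic stem cells. With 1 library per group there is no replicate and no test, so every difference below compares these libraries, genotype and library preparation cannot be told apart, and each interval is a 95% interval for counting error only.

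Neutrophils make their granules in waves while they mature. Primary granules, with myeloperoxidase and elastase, are made in promyelocytes; secondary (specific) granules follow in myelocytes and metamyelocytes; gelatinase granules come later, and granule genes are shut off in mature cells. The transcription factor C/EBPε is required for secondary granule genes. Ltf encodes lactoferrin, an iron-binding protein; Lcn2 encodes lipocalin 2, which binds bacterial siderophores; Camp encodes the precursor of the antimicrobial peptide CRAMP; Ngp encodes neutrophilic granule protein, a cystatin-related protein. Fcnb encodes ficolin B, a lectin of the complement system; Chil3 encodes Ym1, a chitinase-like lectin also made by some monocytes and macrophages; Orm1 encodes orosomucoid 1, an acute-phase protein best known from liver.

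All 7 genes are protein-coding in GENCODE vM21 (build GRCm38), and their gene identifiers match those of the deposited files. Camp, Ngp and Ltf lie in that order on chromosome 9: Camp (ENSMUSG00000038357) at 109847379 to 109849617 on the minus strand, Ngp (ENSMUSG00000032484) at 110419747 to 110423012 on the plus strand and Ltf (ENSMUSG00000032496) at 111019271 to 111042767 on the plus strand. The gaps between them are 570 kb and 596 kb. Fcnb (ENSMUSG00000026835) lies on chromosome 2 at 28076378 to 28084885 and Lcn2 (ENSMUSG00000026822) on the same chromosome at 32384633 to 32388252, both on the minus strand. Chil3 (ENSMUSG00000040809) lies on chromosome 3 at 106147554 to 106167564 on the minus strand, and Orm1 (ENSMUSG00000039196) on chromosome 4 at 63344560 to 63348163 on the plus strand. Camp, the first of the 3 on chromosome 9, was highest a stage earlier than Ngp and Ltf in both libraries.

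The 250 bases before the members' RefSeq starts (GRCm38.p6) were searched for short motifs of myeloid transcription factors. Promoters of 6 members were matched. The C/EBP motif TTGCNNAA, searched on both strands, was present before 4 of 6 members (Ltf, Ngp, Lcn2 and Fcnb), and in 9.56% of 32851 mouse promoter windows of that length. It was not found before Camp or Chil3, but for Camp 161 of the 250 bases searched lie inside the GENCODE gene. The PU.1 motif GAGGAA stood before 2 of 6 (Ltf and Lcn2) against 23.3% of all windows, the GATA motif AGATAA before 2 (Ltf and Chil3) against 9.99%, the CCAAT box before 4 (Ltf, Ngp, Fcnb and Chil3) against 33.8%, and the RUNX motif TGTGGT before 0 against 14.0%. A match is a string of letters in this window, and binding was not measured. The sequences with a C/EBP match are shown 5′ to 3′ on the gene's strand with the match in capitals. They are the stretches chr9:111019042-111019270 (Ltf), chr9:110419558-110419746 (Ngp), chr2:28084886-28085128 (Fcnb), which stop where the GENCODE gene begins, and 30 bases around the Lcn2 match, chr2:32387937-32387966, which GENCODE places inside the gene.
Ltf: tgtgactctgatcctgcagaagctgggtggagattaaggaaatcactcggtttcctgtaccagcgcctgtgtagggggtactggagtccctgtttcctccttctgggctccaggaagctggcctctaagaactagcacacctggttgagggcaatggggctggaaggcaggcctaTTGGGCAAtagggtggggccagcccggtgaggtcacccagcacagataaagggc
Ngp: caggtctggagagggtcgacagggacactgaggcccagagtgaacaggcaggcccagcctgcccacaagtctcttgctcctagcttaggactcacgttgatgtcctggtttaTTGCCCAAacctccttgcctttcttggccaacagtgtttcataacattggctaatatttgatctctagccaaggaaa
Fcnb: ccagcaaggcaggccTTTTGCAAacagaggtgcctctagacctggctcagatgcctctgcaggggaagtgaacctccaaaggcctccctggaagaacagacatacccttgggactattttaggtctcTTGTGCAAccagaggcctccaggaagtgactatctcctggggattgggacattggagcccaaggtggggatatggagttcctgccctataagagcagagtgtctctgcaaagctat
Lcn2: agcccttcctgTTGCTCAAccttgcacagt
The Ltf match lay 75 to 68 bases before the RefSeq start and the Lcn2 match 216 to 209 bases before it. Fcnb held 2 matches, at 235 to 228 and at 123 to 116 bases. Ngp held a match at 138 to 131 bases and another at 11 to 4 bases, which GENCODE places inside the gene and which is not shown.

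The filtered data held 119905786 UMIs of 14760 control cells and 102740700 UMIs of 12645 cells of the MYC library, at medians of 5322 and 6014 unique molecular identifiers (UMIs, each standing for 1 captured transcript end). Of these, 6761 control cells and 5908 cells of the MYC library fell into 5 neutrophil stages, named from markers that include none of the 7 genes. Granulocyte progenitors (520 and 436 cells) were led by Elane, Prtn3 and Mpo, proliferating precursors (1053 and 1293 cells) by cell cycle genes with Cebpe, and immature neutrophils (1034 and 1027 cells) by AA467197, Ly6g and Cd177. Gelatinase-stage neutrophils (2348 and 1630 cells) were led by Mmp8 and Mmp9, with Retnlg in clusters 7 and 10. Terminal neutrophils (1806 and 1522 cells) were led by Il1b and Csf3r in cluster 3 and by Cxcl2 in cluster 8. Cluster 8 also had the gelatinase-stage markers Stfa2l1, Retnlg and Asprv1 among its 10 leading genes, and neither Il1b nor Csf3r. The first 3 stages mixed both libraries, but the last 2 did not. Clusters 6 and 10 held most control cells of the gelatinase stage and cluster 7 most of those of the MYC library, while cluster 3 held most control terminal cells and cluster 8 most of the others. Values for these 2 stages therefore depend on where the boundary falls. The feature named MYC, whose sequence is not stated, had 0 UMIs in the control lineage and 202 in that of the MYC library (3.98 CPM), from 0.616 CPM in progenitors to 11.6 CPM in terminal neutrophils. The mouse gene Myc was at 13.5 and 7.08 CPM. The libraries shared 97 barcodes. Leaving those out turned none of the members' ratios given below for the 5 stages and the whole lineage. Levels are given as UMIs per 1000000 UMIs of the stage (CPM), which is not corrected for length because each UMI counts a transcript end.

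The 7 genes took 7.89% of all UMIs of the neutrophil lineage in the control library and 7.36% in the MYC library. Their share was 3.04% and 2.92% in granulocyte progenitors, 12.4% and 10.99% in proliferating precursors, and 13.7% and 10.9% in immature neutrophils. It was lower after that, 6.42% and 5.93% at the gelatinase stage and 0.631% and 1.34% in terminal neutrophils. The genes differed in the stage of their highest level, as the plot of levels by stage shows.

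**Figure D1:**
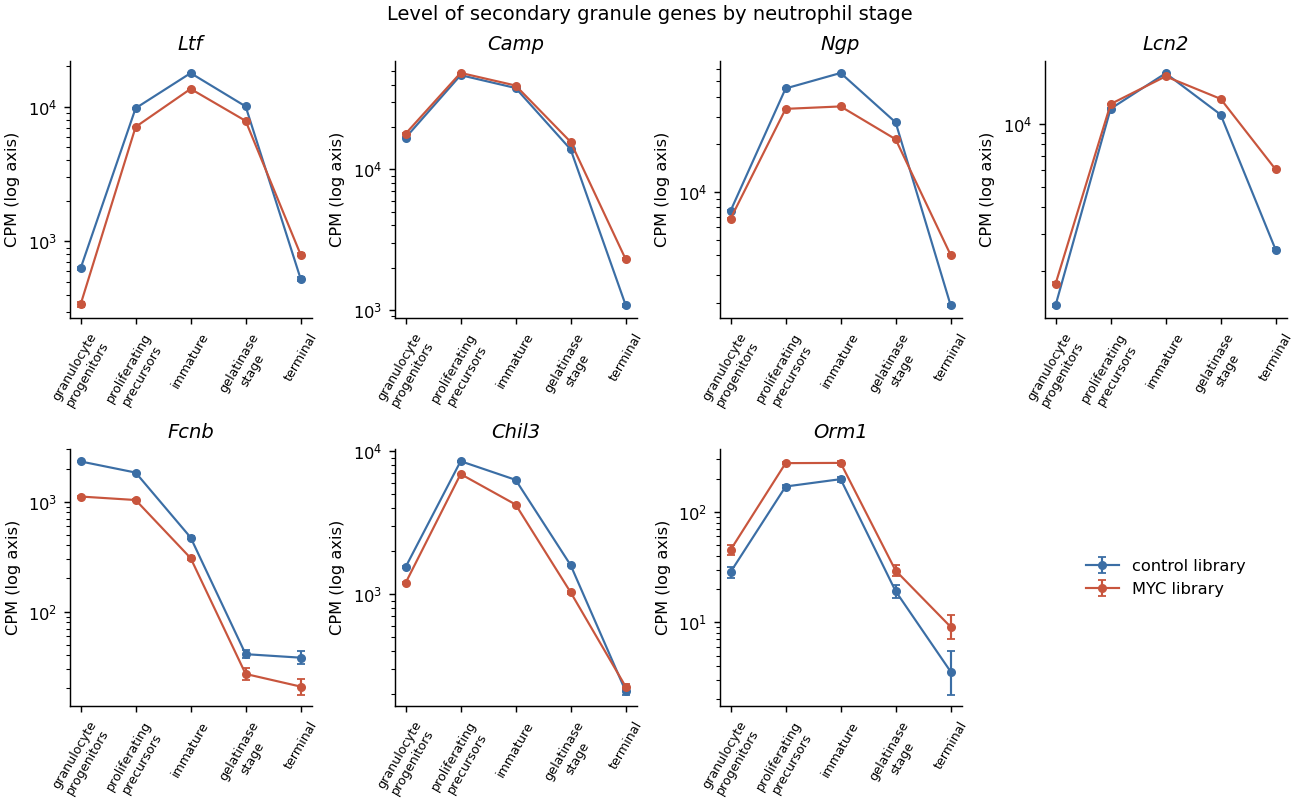
CPM (log axis) of each gene in the 5 neutrophil stages, in order of maturation, in the control (blue) and MYC (red) libraries; bars are 95% counting intervals, often smaller than the points. Fcnb is highest in granulocyte progenitors, Camp and Chil3 in proliferating precursors, and Ltf, Ngp and Lcn2 in immature neutrophils in both libraries.

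Fcnb came first. In the control library it stood at 2329 CPM in granulocyte progenitors, 1844 in proliferating precursors, 472 in immature neutrophils, 40.9 at the gelatinase stage and 38.0 in terminal neutrophils. In the MYC library the same stages stood at 1115, 1037, 307, 27.0 and 20.7 CPM. Its peak over the next stage was small, 1.26-fold in the control against 1.08-fold in the MYC library, and under other settings proliferating precursors were highest in 3 of 12 settings for the control and in 6 of 12 for the MYC library. Later stages were far lower: the control level in immature neutrophils was 3.91-fold below that of precursors, and at the gelatinase stage it was 11.6-fold lower again. Mature B cells, which do not make these proteins, held 24.2 CPM of Fcnb in the control library and 8.44 CPM (6 UMIs) in the MYC library, and erythroid cells held 37.6 and 26.2 CPM, so the last 2 stages lay near the erythroid level in both libraries and above the mature B cell level.

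Camp and Chil3 were highest in proliferating precursors in both libraries and under all 12 other settings. Camp was already at 16813 CPM in control granulocyte progenitors and at 17950 CPM in those of the MYC library. It reached 46836 and 48600 CPM in proliferating precursors, then 37937 and 39507 in immature neutrophils, 13879 and 15682 at the gelatinase stage and 1084 and 2298 in terminal neutrophils. Chil3 started lower, at 1545 and 1196 CPM. It reached 8519 and 6922 CPM in precursors and stood at 6305 and 4233 in immature neutrophils, 1593 and 1027 at the gelatinase stage and 209 and 224 in terminal neutrophils.

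Ltf, the latest of the set to start, differed most between the first stages. It stood at 632 CPM in control granulocyte progenitors and 341 CPM in those of the MYC library, and was 15.5-fold and 20.8-fold higher in proliferating precursors (9778 and 7101 CPM). It was highest in immature neutrophils (17836 and 13614.5 CPM), then 10087 and 7871 CPM at the gelatinase stage and 527 and 798 CPM in terminal neutrophils. Ngp stood at 7635 and 6806 CPM in progenitors and at 45107 and 33525 in precursors. It was highest in control immature neutrophils, at 56479 CPM or 5.65% of all UMIs, and in the MYC library reached 34736 CPM there. Its peak was clear in the control (1.25-fold over precursors) and slight in the MYC library (1.04-fold), where precursors were highest in 3 of 12 other settings. At the gelatinase and terminal stages Ngp stood at 27541 and 21557 CPM, then 1932 and 4013 CPM.

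Lcn2 stood high at more stages than the others. It stood at 1374 and 1737 CPM in progenitors, 11791 and 12414 in precursors and 17388 and 16804 in immature neutrophils. It was still at 11057 and 13136 CPM at the gelatinase stage and at 2518 and 6065 CPM in terminal neutrophils, where it was the most abundant of the 7. Orm1 had the fewest UMIs in the lineage, at 28.5 and 45.3 CPM in progenitors, 169 and 276 in precursors, 198 and 277 in immature neutrophils, 19.1 and 29.3 at the gelatinase stage and 3.58 and 9.09 in terminal neutrophils. Precursors and immature neutrophils of the MYC library did not differ in Orm1 beyond counting error (ratio 1.005, interval 0.954 to 1.06), and the stage of its peak changed under 4 of 12 other settings in the control and 6 of 12 in the MYC library.

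From granulocyte progenitors to proliferating precursors, 6 of 7 members were at least 1.5-fold higher in each library, all but Fcnb, while 11.6% of 9854 compared genes were in the control and 13.7% of 9588 in the MYC library. From precursors to immature neutrophils, 1 member (Ltf) was at least 1.5-fold higher in each library (14.2% of genes in the control, 13.2% in the MYC library). Lower by that much were Fcnb in the control (31.9% of genes), and Fcnb and Chil3 in the MYC library (32.8%). From immature neutrophils to the gelatinase stage all 7 were lower in the control (20.6% of genes) and 6, all but Lcn2, in the MYC library (14.1%). From the gelatinase stage to terminal neutrophils, 6 of 7, again all but Fcnb, were at least 1.5-fold lower in each library, as were 12.5% of compared genes of the control and 8.22% of those of the MYC library. Members were picked as granule genes, so these counts describe the course of the set.

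The shares of each gene's UMIs by stage follow from level, depth and cell number. In the control library, granulocyte progenitors and proliferating precursors together held most UMIs of Fcnb (40.4% and 45.3%) and of Camp (12.5% and 49.1%). For Ltf these shares were 1.51% and 33.0%, and 27.3% lay at the gelatinase stage. For Orm1 51.2% lay in precursors and 30.3% in immature neutrophils. In terminal neutrophils the largest share was that of Lcn2, 2.87% in the control against 7.51% in the MYC library.

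**Figure D2:**
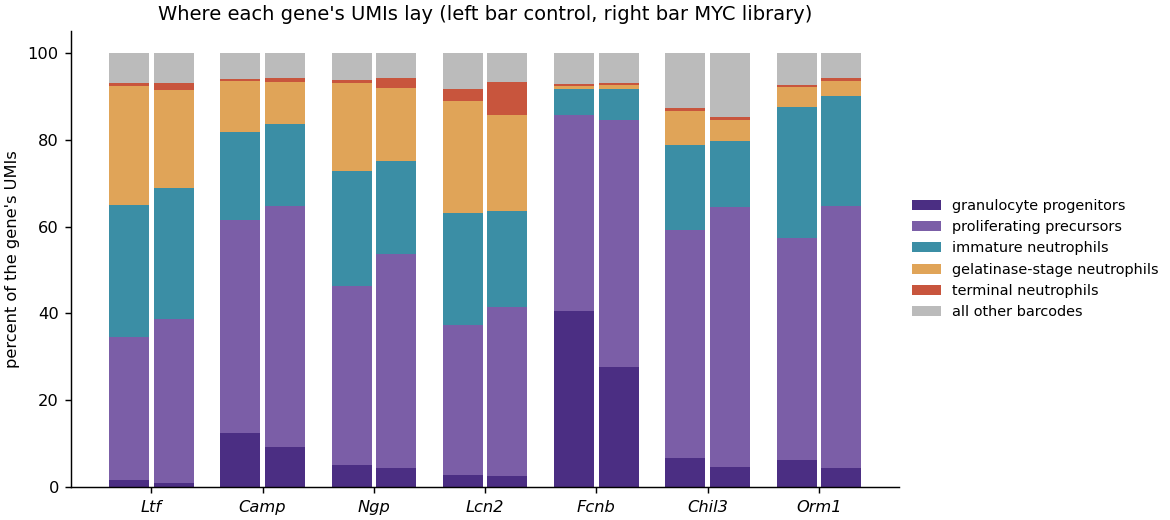
Percent of each gene's UMIs (0 to 100) in the 5 neutrophil stages and in all other barcodes, as stacked bars, left for the control and right for the MYC library. The neutrophil lineage holds 87.2% of Chil3 UMIs in the control library and 91.8% to 93.9% of those of the other genes.

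Within stages the cells were compared at equal depth, with every cell thinned to 500 UMIs. The median cell then held UMIs of 2 of the 7 genes in granulocyte progenitors, 5 in precursors, 5 in immature neutrophils, 4 at the gelatinase stage and 2 in terminal neutrophils, in both libraries. At least 5 genes were seen in 97.4% of control precursors and 91.6% of those of the MYC library, and in 91.8% and 78.7% of immature neutrophils. None of the 7 was seen in 20.2% and 25.7% of granulocyte progenitors. Thinned control progenitors held a UMI of Fcnb in 58.5% of cells (unthinned 91.9%), of Camp in 57.9% (97.1%) and of Ltf in 17.9% (79.6%). Mature B cells of the control library gave 1.40%, 24.7% and 10.3% thinned for the same genes (unthinned 11.7%, 89.7% and 58.0%), with median depths of 4436 UMIs in B cells and 19717 in progenitors. Unthinned shares for the abundant members therefore say little about which cells make them.

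Granulocyte progenitors were an uneven stage. The tenth of control progenitors richest in Ltf held 68.5% of its UMIs there, and for Camp the corresponding share was 41.3%. In control precursors these shares were 19.3% and 20.5%. Camp and Ngp varied together across control progenitors (Spearman's rho 0.88 over 520 cells) and across control gelatinase-stage cells (0.91 over 2348 cells), with 0.88 and 0.77 in the MYC library. At the stages where both were most abundant this was weak: rho was -0.04 and 0.20 in precursors and 0.19 and 0.25 in immature neutrophils. It was 0.22 and 0.38 in terminal neutrophils. The gelatinase stage pools clusters of unlike level. Control Camp and Ngp were at 19542 and 37509 CPM in cluster 6, but at 3162 and 8701 CPM in cluster 10. The part of this in rho was not tested. Across proliferating precursors the pair with the lowest rho of 21 was Ltf and Fcnb, with -0.47 over 1053 control cells and -0.40 over 1293 cells of the MYC library, so cells rich in ficolin B transcripts tended to be poor in lactoferrin transcripts. These are correlations across cells of 1 library of levels per 10000 UMIs, which share depth, and are given as descriptions.

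Between the libraries the 7 genes did not move as a block. In the neutrophil lineage as a whole, Fcnb was lower in the MYC library and Orm1 higher, Ltf and Ngp were moderately lower, Camp and Lcn2 slightly higher and Chil3 slightly lower. All genes compared in the lineage had a median log2 ratio (MYC over control) of -0.28, so a gene at 0 lies above most others. Against that background 1 member (Orm1) was at least 1.5-fold higher, as were 4.67% of 11661 genes, and 1 (Fcnb) at least 1.5-fold lower, as were 21.9%.

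**Figure D3:**
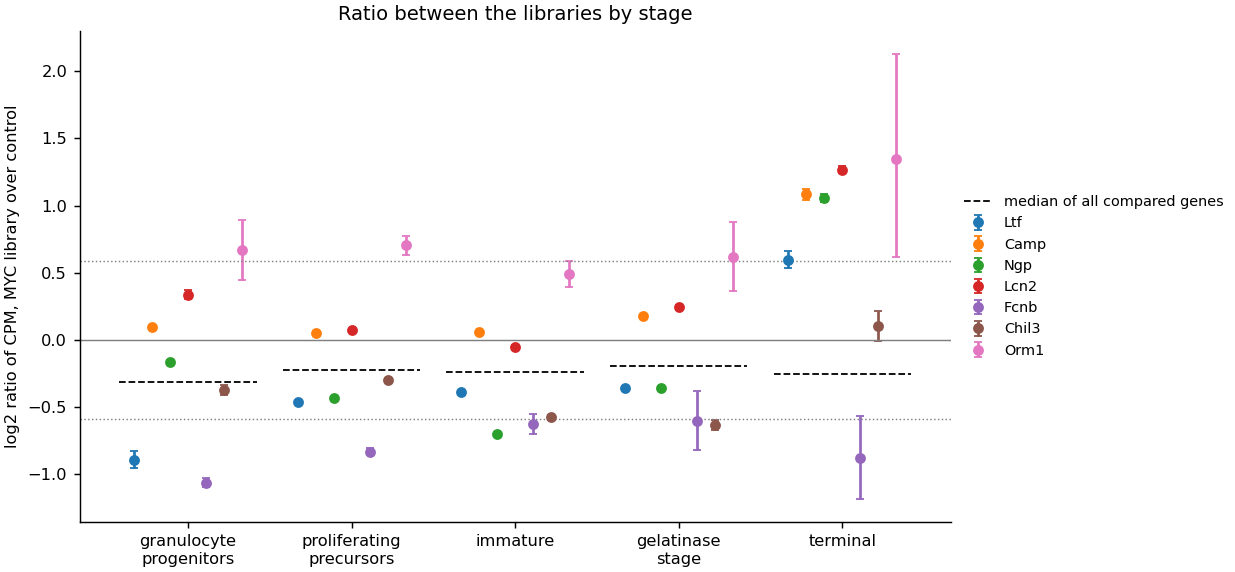
Log2 ratio of CPM (MYC over control library) of each gene in the 5 stages, with 95% counting intervals; dashed lines are the median of all compared genes, dotted lines 1.5-fold. Orm1 is above 0 and Fcnb below 0 at every stage, the other genes lie between them in the first 2 stages, and in terminal neutrophils Camp, Ngp and Lcn2 are above 1.

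Fcnb was lower in the MYC library in the first 2 stages, which hold most of its UMIs. The lineage held 1109 and 603 CPM, which is a log2 ratio of -0.88 (interval -0.90 to -0.86), and this fell short of 1.5-fold as a mean over cells (-0.57). By stage the log2 ratio was -1.06 (-1.10 to -1.03) in granulocyte progenitors, -0.83 in proliferating precursors, -0.62 in immature neutrophils, -0.60 at the gelatinase stage and -0.88 (-1.18 to -0.57) in terminal neutrophils. In the first 2 stages, with 40.4% and 45.3% of control Fcnb UMIs, it was lower under all 12 other settings. With each library clustered on its own it turned to 0.20 in immature neutrophils and 0.16 at the gelatinase stage, and with finer clusters to 0.23 in terminal neutrophils. The median mitochondrial share of granulocyte progenitors was 4.96% in the control against 3.14% in the MYC library; with cells under 5% alone, Fcnb there was at -1.23 and Ltf at -0.85. Thinned to 500 UMIs, 58.5% of control progenitors and 42.2% of those of the MYC library held a Fcnb UMI.

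Orm1 was higher in the MYC library in the first 3 stages. The lineage held 89.99 and 154 CPM, which is a log2 ratio of 0.78 (0.72 to 0.83), and the ratio stayed between 0.69 and 1.06 under the other settings. It was 0.67 in progenitors, 0.70 (0.63 to 0.77) in precursors, 0.49 in immature neutrophils, 0.62 at the gelatinase stage and 1.35 (0.62 to 2.13) in terminal neutrophils, the last from 21 and 65 UMIs and at the level of erythroid cells (3.58 and 9.09 CPM against 3.58 and 9.44 CPM). At the gelatinase stage it turned under 3 of 11 other settings. Cells with an Orm1 UMI among 500 made up 8.17% of control precursors and 12.8% of those of the MYC library.

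Ltf and Ngp were lower in the MYC library in the first 3 stages. At the gelatinase stage they had log2 ratios of -0.36 and -0.35, which turned to 0.96 and 0.70 when the 2 libraries were clustered separately. Ltf stood at 8094 and 6251 CPM in the lineage, a log2 ratio of -0.37, with -0.89 (-0.95 to -0.83) in progenitors, -0.46 in precursors and -0.39 in immature neutrophils. Ngp stood at 29944.5 and 22971.5 CPM, a log2 ratio of -0.38, with -0.17 in progenitors, -0.43 in precursors and -0.70 in immature neutrophils. Relative to the median gene the lineage values are small, -0.09 for Ltf and -0.10 for Ngp, while Ngp in immature neutrophils is at -0.47 and Ltf in progenitors at -0.58. The Ngp value in progenitors turned under 3 of 12 other settings, to 0.15 with median-of-ratios scaling, 0.20 when a cell needed 1000 UMIs and 500 genes and 0.04 when the 2 libraries were clustered separately.

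Camp and Lcn2 were nearly level. Camp had a log2 ratio of 0.17 in the lineage (26280.5 and 29489 CPM) and of 0.09, 0.05 and 0.06 in the first 3 stages, turning under 4 of 12 other settings in progenitors and under 3 in immature neutrophils. Lcn2 had 0.20 in the lineage (9228 and 10604 CPM), with 0.34 in progenitors, 0.07 in precursors and -0.05 in immature neutrophils, where it turned under 5 of 12 other settings, at most to 0.19 with median-of-ratios scaling. Relative to the median gene the lineage values are 0.45 for Camp and 0.48 for Lcn2. Chil3 had -0.24 in the lineage (4159 and 3528 CPM), which turned to 0.05 with median-of-ratios scaling, and -0.37, -0.30 and -0.57 in the first 3 stages.

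Counted by stage, 1 member was at least 1.5-fold higher in granulocyte progenitors of the MYC library (Orm1; 4.46% of genes) and 2 lower (Ltf and Fcnb; 27.3% of genes). In proliferating precursors 1 was higher (Orm1; 7.87% of genes) and 1 lower (Fcnb; 17.4%). In immature neutrophils none was higher (7.6% of genes) and 2 were lower (Ngp and Fcnb; 19.7%). The median over the 7 members was -0.17, -0.30 and -0.39 in these stages, beside -0.31, -0.22 and -0.23 for all compared genes, but the members lay on both sides of it, from -1.06 (Fcnb) to 0.67 (Orm1) in progenitors and from -0.83 to 0.70 in precursors. Fcnb in progenitors and in precursors and Orm1 in precursors stayed past 1.5-fold under all 12 other settings. The other calls ended under some: Orm1 in progenitors was at 0.20 with the members and companion genes among the variable genes, Ltf in progenitors at -0.45 with coarser clusters, and Ngp and Fcnb in immature neutrophils at -0.47 and -0.39 with median-of-ratios scaling. Orm1 in immature neutrophils passed 1.5-fold under some, at 0.72 with median-of-ratios scaling and 1.203 when the 2 libraries were clustered separately. Proliferating precursors are 3 clusters, in which Fcnb lay between -0.81 and -0.71, Orm1 between 0.59 and 0.74, Ngp between -0.52 and -0.42 and Camp between 0.04 and 0.06. Chil3 lay between -0.42 and -0.28, Lcn2 between 0.01 and 0.18 and Ltf between -0.61 and -0.43, past 1.5-fold in cluster 17 (255 and 245 cells) but not in the other two.

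The ratio of one member to another within a library needs no scaling between libraries, and so shows how the make-up of the set differed. For every Camp UMI the control lineage held 1.14 Ngp UMIs and the MYC lineage 0.779. In immature neutrophils these were 1.49 and 0.879, in precursors 0.963 and 0.690, in progenitors 0.454 and 0.379, at the gelatinase stage 1.98 and 1.37 and in terminal neutrophils 1.78 and 1.75. In both libraries Ngp per Camp was thus higher at each stage up to the gelatinase stage, and at the same stage it stood lower in the MYC library, least so in terminal neutrophils. That direction turned in progenitors with each library clustered on its own (log2 difference 0.011) and in terminal neutrophils as a mean over cells (0.082).

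**Figure D4:**
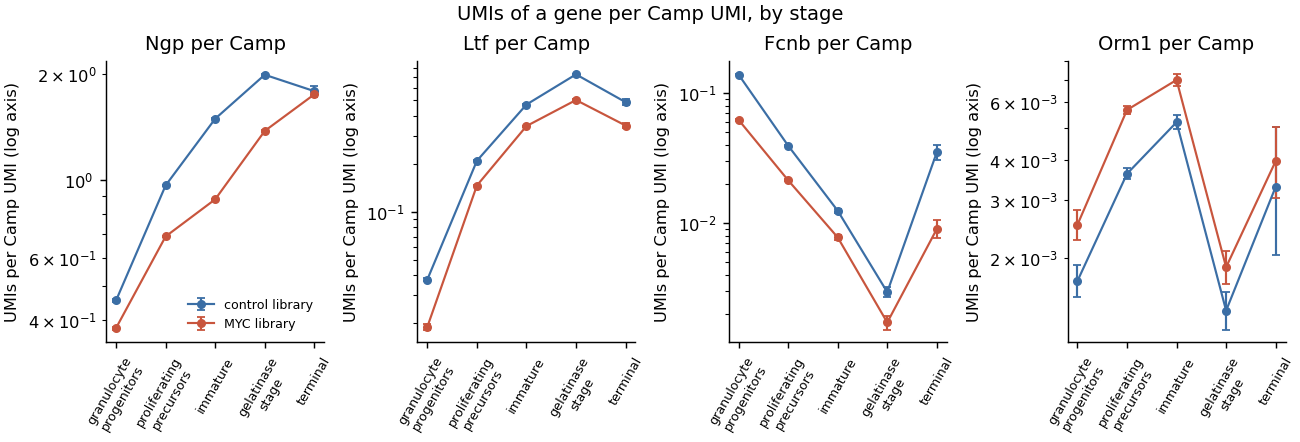
UMIs of Ngp, Ltf, Fcnb and Orm1 per Camp UMI (log axis) in the 5 stages in the control (blue) and MYC (red) libraries, with 95% counting intervals. The MYC library lies below the control for Ngp, Ltf and Fcnb at each stage and above it for Orm1; for terminal neutrophils the intervals of Ngp and of Orm1 overlap.

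Ltf gave 0.308 UMIs per Camp UMI in the control lineage against 0.212 in that of the MYC library. For Chil3 these were 0.158 and 0.120, and for Lcn2 0.351 and 0.360, so Lcn2 stood in nearly the same proportion to Camp in both. The scarcer members are given per 100 Camp UMIs: Fcnb had 4.22 and 2.05, and Orm1 0.342 and 0.523. As log2 differences (MYC minus control) the lineage values were -0.55 for Ngp, -0.54 for Ltf, -1.04 for Fcnb and 0.61 for Orm1. Under the other settings they ranged from -0.64 to -0.54, -0.55 to -0.53, -1.07 to -0.87 and 0.60 to 0.62. Changing the scaling total cannot move a ratio within a library. Other clusters move these lineage values only through which cells count as lineage, so narrow ranges were partly given in advance.

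At the last 2 stages the values depend on the clusters. In terminal neutrophils 5 of 7 members (Ltf, Camp, Ngp, Lcn2 and Orm1) were at least 1.5-fold higher in the MYC library (8.94% of genes). Fcnb was lower (26.4% of genes). Orm1, Camp and Fcnb lay near their erythroid levels in both libraries, though Camp and Fcnb were above their mature B cell levels. The log2 ratios were 0.60 for Ltf, 1.08 for Camp, 1.05 for Ngp, 1.27 for Lcn2 and 0.10 for Chil3, and the median 1.05 against -0.25 for all compared genes. Control terminal cells lay mostly in cluster 3 (1713 of 1806) and those of the MYC library in cluster 8 (1356 of 1522). Their median depths were 3155 and 4606 UMIs and their median mitochondrial shares 0.563% and 0.784%; the part of these in the result was not tested. Within cluster 3 (1713 and 166 cells) Ltf had 0.08 (-0.09 to 0.24), Camp 0.90, Ngp 0.45 and Lcn2 0.31. Within cluster 8 (93 and 1356 cells) Ltf had 1.26, Camp 1.11, Ngp 0.66 and Lcn2 0.60. Camp and Lcn2 stayed above 0 under all 12 other settings but did not stay past 1.5-fold: Camp was at 0.32 when a cell needed 1000 UMIs and 500 genes, and Lcn2 at 0.25 with doublets kept. Ltf turned under 3 and Ngp under 2, and the median was -0.04 when a cell needed 1000 UMIs and 500 genes.

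The UMIs of terminal cells were unevenly spread. The tenth of cells richest in Ltf held 62.2% of its UMIs in the control against 80.7% in the MYC library, and the median cell had 2.61 and 1.85 Ltf UMIs per 10000, which is lower in the MYC library although the summed level was higher. The median cell had 14.8 and 47.3 Lcn2 UMIs per 10000. For Lcn2 the share of cells with a UMI among 500 was 53.1% and 82.6%, and for Camp 33.2% and 47.8%. Mature B cells, as a background, gave 17.0% and 19.0% for Lcn2 and 24.7% and 37.4% for Camp.

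Outside the neutrophil lineage the direction differed by class. In erythroid cells Camp had a log2 ratio of 1.18, Lcn2 of 0.95, Ltf of 0.62, Ngp of 0.52, Chil3 of 0.74 and Orm1 of 1.40, but Fcnb of -0.52. In plasma cells Camp had 1.15, Lcn2 1.05 and Fcnb 0.17, and in mature B cells Camp had 0.92, Lcn2 0.70 and Fcnb -1.52. The MYC library was lower for stem or multipotent progenitors, where Camp had -1.39, Ngp -1.26 and Chil3 -1.60. In basophils or mast cells Ltf had -0.96, Ngp -0.84 and Camp -0.14. In plasmacytoid dendritic cells (213 and 40 cells) Ltf had -1.83 (491 and 26 UMIs), Ngp -0.72 and Camp -0.17. As a share of the lineage level in the same library, Camp was at 4.12% in control terminal neutrophils and 3.65% in control erythroid cells. In the MYC library these were 7.79% and 7.35%, so its terminal level lay near that of erythroid cells in both. That erythroid level was uneven: 73 of 1459 control cells held 80.0% of it, and 29 of 578 MYC-library cells 85.0%. Camp in mature B cells was lower, 484 and 916 CPM against 1084 and 2298 CPM in terminal neutrophils. Lcn2 lay above its erythroid level, at 27.3% against 4.73% in the control library, and at 57.2% against 7.98% in the MYC library. Ngp was at 6.45% against 3.80%, and at 17.5% against 7.09%. Ltf was at 6.52% against 4.42%, and at 12.8% against 8.83%. The rest were close to the erythroid level or below it: Fcnb at 3.42% against 3.39% and at 3.43% against 4.34%, Chil3 at 5.02% against 4.09% and at 6.36% against 8.06%, and Orm1 at 3.97% against 3.98% and at 5.90% against 6.12%. The part of free RNA in the terminal levels was not tested.

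At the gelatinase stage 1 member (Orm1) was at least 1.5-fold higher (9.01% of genes) and 2 (Fcnb and Chil3) lower (18.7%), with a median over members of -0.35 against -0.19 for all compared genes. Cluster 6, where the control levels of Ltf, Camp and Ngp were the highest of the 3 clusters, gave -0.23 for Ltf, -0.40 for Ngp and 0.15 for Camp (1344 and 147 cells). Cluster 10 gave 0.78, 0.45 and 1.16 (911 and 88 cells), and cluster 7 gave 0.01, -0.12 and 0.43 (93 and 1395 cells). In each of these clusters Ngp and Ltf lay below Camp, the same order as in the earlier stages, while the sign of the ratio itself changed with the cluster. Clustering each library on its own moved the median to 0.96.

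Near-identical copies could affect 2 members. Over the last 300 bases of their transcripts Orm1 is 97.7% identical to Orm2 and 90.7% to Orm3, and Chil3 is 89.4% identical to Chil4, so reads could be assigned to the wrong copy or dropped. In the lineage Orm2 had 3 UMIs in the control against 6 in the MYC library, Orm3 0 and 3, and Chil4 24 and 10. Reads that match 2 copies equally are in none of these counts, so the Orm1 and Chil3 levels are uncertain by an amount that these UMIs do not give. More distant relatives with at least 50 UMIs in the lineage were Chil1, Trf, Cst3, Stfa1 and Stfa2. Chil1, another chitinase-like gene, was lower in the MYC library (281 and 180 CPM, log2 ratio -0.64), in the direction of Chil3. Trf, serum transferrin and a relative of Ltf, stood at 25.5 and 17.1 CPM (-0.58). The cystatin relatives of Ngp differed among themselves: Cst3 was at 0.06 (318 and 330 CPM), and the stefins Stfa1 and Stfa2 at 2.02 and 3.05.

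Other granule and regulator genes were set beside the members. Of 35 companion genes of secondary granules and their membranes 33 were compared. In proliferating precursors 5 were at least 1.5-fold higher (7.87% of all compared genes) and 3 lower (17.4%), with a median of 0.02 beside -0.22 for all compared genes. Slpi (log2 ratio 0.84), a secreted protease inhibitor, and Ifitm6 (0.80) were the highest of those above 100 CPM, and Itgam (-0.75), the integrin chain CD11b, and Rab27a (-0.62), which acts in granule exocytosis, the lowest. In the lineage 4 were higher (4.67% of all compared genes) and 2 lower (21.9%), with Ifitm6 (0.81) and Lrg1 (0.77) highest and Rab27a (-0.72) and Itgam (-0.55) lowest. In terminal neutrophils 13 were higher (8.94% of all compared genes) and 2 lower (26.4%), with a median of 0.26 beside -0.25 for all. The companion genes thus differed in both directions, as the members did.

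Of 9 primary granule genes, 2 were higher (7.87% of all compared genes) and none lower (17.4%) in precursors, with a median of 0.41 beside -0.22 for all. In immature neutrophils 5 were higher (7.6% of all compared genes) and 1 lower (19.7%), with a median of 0.59 beside -0.23 for all compared genes. Of the 9 genes, Calr alone reached the 100 CPM needed for naming at that stage. Most of these calls therefore rest on genes at low levels, and the part of free RNA in them was not tested. In precursors Prtn3 (proteinase 3, which cleaves the human counterpart of the Camp product) had 0.69 and Ms4a3 0.41, and Elane -0.03 and Mpo -0.38. In granulocyte progenitors none was higher (4.46% of all compared genes) and 2 were lower (27.3%), Mpo at -0.63 (9005 and 5831 CPM) and Calr at -0.81, while Ctsg was at 0.57, and the median of 0.31 lay above the -0.31 of all compared genes. Of 10 gelatinase granule genes 8 were compared in precursors, 2 higher (7.87% of all compared genes) and 1 lower (17.4%), and in terminal neutrophils 6 of 10 were higher (8.94% of all compared genes) and 1 lower (26.4%), with a median of 0.74. In immature neutrophils Retnlg stood at 656 and 1565 CPM (1.25).

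Of 12 regulators, 1 was higher (4.67% of all compared genes) and 5 lower (21.9%) in the lineage, with a median of -0.42 beside -0.28 for all. Cebpe, which encodes C/EBPε, was near level (434 and 446 CPM, log2 ratio 0.04) in the lineage but not at each stage, with 0.24 in granulocyte progenitors, 0.05 in precursors, -0.25 in immature neutrophils, -0.36 at the gelatinase stage and 0.26 in terminal neutrophils, none past 1.5-fold. Cebpb was higher (237 and 361 CPM, 0.61), and the G-CSF receptor gene Csf3r was lower (405 and 177 CPM, -1.20). In granulocyte progenitors 2 were higher (4.46% of all compared genes) and 6 lower (27.3%), with Csf3r at -1.01 and Gfi1, a repressor needed for neutrophil maturation, at -0.70. Of 9 genes of receptors and partners of the members' products 4 were compared in the lineage and none passed 1.5-fold; Fpr2, a receptor for the Camp product, was at -0.49.

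Across 22 points (11 classes of at least 100 cells in each of both libraries) the genes most like each member were taken by Pearson's r of log2(CPM + 1). Inhba, an activin subunit gene, was among the 3 most like Ltf (0.96), Camp (0.95), Ngp (0.99), Chil3 (0.90) and Orm1 (0.90). With it came AA467197 and Cd177 for Ltf, Abca13 and 4930438A08Rik for Camp, Abca13 and Itgb2l for Ngp, C3 (0.92) and Rhou for Chil3, and Plscr1 and Cebpe (0.88) for Orm1. Lcn2 was most like Cd177 (0.99), Itgb2l and Mapk13. Fcnb stood apart, with Hmgn2 (0.89), 1810037I17Rik and Lta4h. Among the members themselves r ran from 0.49 for Ltf with Fcnb to 0.97 for Camp with Ngp. The points share libraries and free RNA, and r is a description.

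Outside the neutrophil lineage UMIs of all members were found in every class, save Orm1 in control macrophages, at levels that differed by class and library. Each is given as a percent of its own lineage level in the same library. In control mature B cells the 7 genes lay between 1.47% (Orm1) and 3.29% (Lcn2), in control erythroid cells between 3.39% (Fcnb) and 4.73% (Lcn2) and in control T or NK cells between 3.64% (Orm1) and 7.78% (Lcn2). In the MYC library the medians were 3.75% in mature B cells, 7.35% in erythroid cells and 8.41% in T or NK cells, against 2.18%, 3.98% and 6.05% in the control. The highest medians of named classes were those of the MYC library in megakaryocytes, 19.6% (8.34% to 22.3%, 62 cells), and in B progenitors, 30.1% (12.6% to 39.6%, 17 cells), against 10.6% and 5.74% in the control. The spread within a class was wider elsewhere: 2.07% (Fcnb) to 10.9% (Orm1) in control B progenitors, 3.62% (Fcnb) to 14.9% (Orm1) in control megakaryocytes, 1.96% (Fcnb) to 10.3% (Ltf) in control nonclassical monocytes, and 1.56% (Orm1, from 2 UMIs) to 9.70% (Camp) in T or NK cells of the MYC library. Against the median of the other members, Fcnb was at 0.355 times (0.282 to 0.442) in control B progenitors, at 0.312 times (0.175 to 0.515) in control megakaryocytes, at 0.254 times (0.145 to 0.412) in control nonclassical monocytes and at 0.566 times (0.489 to 0.651) in erythroid cells of the MYC library.

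**Figure D5:**
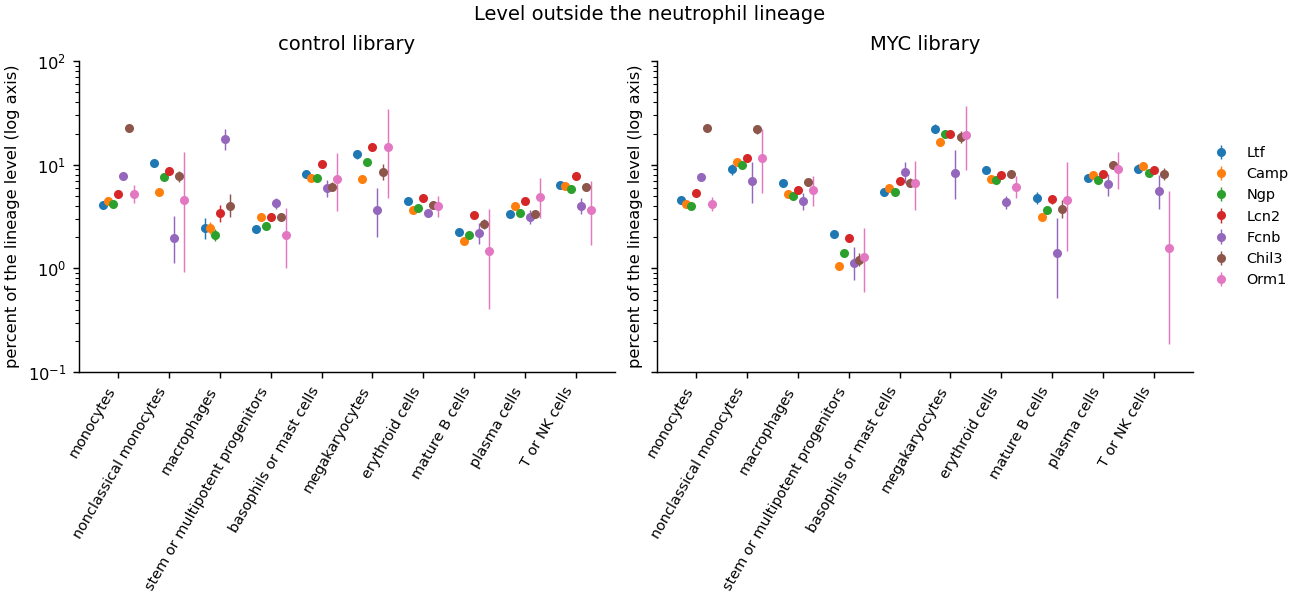
Level of each gene in 10 classes outside the neutrophil lineage as percent of its lineage level (log axis), with 95% counting intervals, in the control (left) and MYC (right) libraries; a gene with 0 UMIs has no point. Chil3 in monocytes, at 22.5% and 22.6%, lies above the other genes there, and Fcnb in control macrophages, at 17.5%, rests on 1 cell.

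The widest departure that rested on many cells in both libraries was Chil3 in monocytes. It stood at 22.5% of its lineage level in the control (937 CPM) and 22.6% in the MYC library (799 CPM), where the other 6 genes lay between 4.10% and 7.86% and between 3.99% and 7.63%. Its monocyte UMIs were also spread over more cells. The twentieth of control monocytes richest in a gene held 33.1% of Chil3 UMIs there, against 75.4% for Ltf, 82.0% for Camp and 62.7% for Fcnb. Fcnb in monocytes was 1.62 times (1.54 to 1.69) the median of the other members in the control library, and 1.73 times (1.64 to 1.83) in the MYC library. Thinned to 500 UMIs, 28.4% of control and 27.9% of MYC-library monocytes held a Chil3 UMI, against 5.08% and 8.16% of mature B cells. Nonclassical monocytes stood at 7.72% in the control against 22.0% in the MYC library, from 142 and 72 cells, and 67.2% of the latter's UMIs lay in 4 cells. In control macrophages Fcnb stood at 17.5%, but 68 of its 73 UMIs came from 1 cell.

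In most other classes a few cells held most member UMIs. In control erythroid cells the twentieth of cells richest in Camp held 80.0% of its UMIs there, with up to 1200 in 1 cell and a median of 3. In control mature B cells that share was 16.5%, with at most 20 UMIs in a cell and a median of 2. Called doublets made up 4.53% of control and 1.95% of MYC-library cells, fewer than the 13.7% and 11.6% expected from the number of barcodes. The part of remaining doublets and of free RNA in these levels was not tested. With the called doublets kept, the control B cell median was 18.6% in place of 2.18%. The low-UMI barcodes that were left unnamed (17.2% of control and 21.9% of MYC-library cells) held between 28.3% and 50.9% of the lineage level of each gene in the control.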

How the data were processed

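The deposited values are UMI counts in whole numbers, one for each gene in each barcode, made with Cell Ranger 6.0, per the submitters' processing notes; no counts were normalised by the authors, and the annotation is not given in the sources used here. The 7 members and all gene lists were chosen with earlier results of these data known. Cells with at least 500 UMIs, 200 genes and under 10% mitochondrial UMIs were kept, and doublets called by Scrublet in scanpy 1.11.5 were removed. Both libraries were clustered together (2000 variable genes without members, companions and paralogs; 30 components, 15 neighbours, Leiden resolution 1). Clusters were named by marker score, checked against their 10 leading genes; those under 25% of their library's median UMIs stayed unnamed, a rule set after seeing the data. UMIs were summed per class and library. Intervals are exact Poisson (CPM), conditional binomial (ratios) and Clopper-Pearson (shares). Ratios need 50 UMIs over both libraries. Named genes were the members, paralogs of at least 50 UMIs, the 2 highest and 2 lowest of each list above 100 CPM and the 3 most like genes; other list genes named were chosen after their values were seen. The ratio calculation was tested on simulated data. Results were recomputed under 11 other settings and 1 chosen after seeing the data.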

Additional observations from a re-analysis of the deposited data

Results flagged for a closer look

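The ratio between the libraries pointed in opposite directions at different stages for 2 members, and the difference between stages was not tested. Ltf had a log2 ratio of -0.89 in granulocyte progenitors and 0.60 in terminal neutrophils, a difference of 1.49. Ngp had -0.70 in immature neutrophils and 1.05 in terminal neutrophils, a difference of 1.76. Both rest on the terminal stage, where different clusters hold most cells of each library and where the sign of either gene turned under other settings.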

How the results depend on the processing

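Ratios in proliferating precursors kept their direction for all 7 members under 11 other settings and 1 chosen after seeing the data (without shared barcodes); in the whole lineage Chil3 was the exception. Later stages moved with the clustering. With median-of-ratios scaling the median over members was 0.15 in granulocyte progenitors, -0.0788 in proliferating precursors, -0.15 in immature neutrophils, 1.31 in terminal neutrophils and 0.0453 in the lineage. As a mean over cells it was 0.84 in terminal neutrophils. With doublets kept it was -1.01 at the gelatinase stage and 0.11 in terminal neutrophils, with Ngp at -0.0168 there. With cells under 5% mitochondrial UMIs it was -0.37 in progenitors and -0.92 at the gelatinase stage, with Orm1 at -0.0632 there and Ltf at -0.20 in terminal neutrophils. With at least 1000 UMIs and 500 genes it was 0.20 in progenitors, -0.97 at the gelatinase stage (Orm1 -0.43) and -0.0407 in terminal neutrophils (Ltf -0.354, Ngp -0.0407). At Leiden resolution 0.5 terminal neutrophils had 0.18 (Ltf -0.0846) and no cluster was named gelatinase stage; at resolution 2 the gelatinase stage had -0.97 and Fcnb 0.23 in terminal neutrophils. With members among the variable genes the gelatinase stage had -0.998 (Orm1 -0.45). With each library clustered on its own, immature neutrophils had 0.0508 (Fcnb 0.20) and the gelatinase stage 0.96 (Fcnb 0.16, Chil3 0.97). The cause of these moves was not tested. No paired analysis was possible because each group has 1 library. Orm1 in terminal neutrophils, with 21 and 65 UMIs, is limited by depth.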
